A study of Rattus norvegicus with 78 samples.

Results

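Cytosolic ribosomal proteins are the protein parts of the ribosomes that translate nuclear-encoded messengers. The rat genes for them were taken as all measured array features whose RefSeq identifiers belong to symbols of the Rpl, Rps and Rplp series or to Rpsa. S6 kinase genes, of which 3 were measured, and symbols ending in -ps were left out. This gave 66 genes of the 9621 genes that could be named, with 1 feature each: 36 genes of the large subunit, 27 of the small subunit and 3 of the stalk. Signal for them was strong, with mean log2 intensities from 8.87 to 13.74 and a median of 10.86, and all 66 lay above the median of the 26419 features, 7.85. The annotation lists 1166 rat symbols of this kind, of which 864 are pseudogenes and 299 protein coding. Signal of a member may therefore include near-identical copies, and member identities are uncertain to that extent. No feature could be named as one of the paralogs Rpl3l, Rpl22l1, Rpl39l, Rpl10l, Rpl7l1, Rpl36al and Rps27l, so these are not among the members.

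Each ribosome holds about equal numbers of most of these proteins, and growing cells make their messengers in large amounts together with translation factors. Many of the messengers start with a C and a run of pyrimidines, the terminal oligopyrimidine (TOP) tract, through which the growth-regulating kinase mTORC1 controls their translation. In the postnatal brain, ribosomes are made in large number while neurons grow and extend processes, and some ribosomal protein messengers are carried into dendrites and axons.

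The animals were male rats of the selectively bred Low Responder line. Dams drank either normal water or water with paroxetine, a serotonin reuptake inhibitor, at 10 mg/kg/day from one week before conception, through gestation and until the offspring were weaned at postnatal day 21 (P21). Hippocampus and amygdala of the offspring were taken at P7, P14, P21 and P75, and RNA was hybridised to 1-colour NimbleGen arrays, 78 in all. The 16 groups held 5 arrays each, except the 2 exposed P7 groups with 4. All animals were of this one line and sex, and at P75 the exposed offspring were long past weaning. The labels do not say which offspring shared a litter, so p-values measure the spread between arrays. Hippocampus and amygdala levels are not set against each other, because the deposited values appear to have been normalised apart. The tissues are bulk, so that fewer cells of a type and less RNA per cell cannot be told apart.

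Markers of neurons were bright in every group, with list means from 12.81 to 13.99 log2 units. Several features of the arrays moved with the groups. The control probe of random sequence read 44.0, 45.2, 55.2 and 56.3 intensity units in control hippocampus at P7, P14, P21 and P75 (group means), against 53.0, 48.6, 47.6 and 49.0 in exposed hippocampus. The interquartile range of named genes was 3.50, 3.40, 2.81 and 2.81 log2 units in those control groups and 2.77, 2.96, 2.98 and 3.20 in the exposed ones. In amygdala at P7 both moved the other way with exposure. There the probe read 48.9 in controls and 44.6 in exposed arrays, and the interquartile range was 3.40 and 3.69. The 1239 olfactory and vomeronasal receptor genes, which brain tissue hardly expresses, averaged 5.96 log2 units in control hippocampus at P7, 6.43 in exposed hippocampus at P7, 6.41 in controls at P75 and 6.15 in exposed at P75. Ribosomal protein genes are bright, so their results are set beside the 929 other genes among the brightest 10% of named genes, called the other bright genes. Only 33 of the 66 members lie in that 10%, and the next 10% steps down hold 20, 11 and 2. The other bright genes are thus not matched to the members in brightness. Differences moved with brightness: with exposure in hippocampus at P75 the medians of those 10% steps were 0.593, 0.475, 0.378 and 0.248, from the brightest down, members included. The control probe had an SD of only 0.28 to 1.61 within hippocampal groups, while the group means ran from 44.0 to 56.3. As a covariate it therefore widens the error of differences between groups whose probe readings differ. Calls lost in that fit cannot tell array brightness from group. The part of array brightness in the differences between groups was not tested beyond these comparisons and the fit with the control probe as a covariate.

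The annotated starts of several members are shown because most members moved together and a few moved against them. Of the 66 members, 53 had an entry in the RefSeq promoter table (build GRCr8) and 52 had exactly 1. A C at the annotated start followed by 4 bases that are each C or T was found in 21 of these 52 (40.4%), against 881 of all 33469 promoters (2.63%), on the gene's own strand. Each line below gives 12 bases before the annotated start and 18 from it, 5′ to 3′, with the run of pyrimidines that begins at the start in capitals. Rplp0, the base of the stalk, and Rpl22, a large subunit protein that also binds other RNAs, fell with most members in exposed hippocampus at P7; Rpl28, Rps15 and Rps26 rose there; Rps7 and Rpl35a rose in exposed amygdala.
Rplp0, chr12:46718373-46718402, minus strand: cgcaccgcacttCTCTCgccaggcgtcctc
Rpl22, chr5:168117949-168117978, plus strand: gtgcgcccccctCCCTTTCTgcctcctctg
Rpl28, chr1:78083515-78083544, minus strand: cgcccctagtgtCTTTCTTTCCgtctccgg
Rps15, chr7:10068098-10068127, minus strand: tgacaccgcttcCTTTTCCCagcagccgcc
Rps26, chr7:1643387-1643416, minus strand: agccgccgggtcCTCTTTCgagtcttggct
Rps7, chr6:50999428-50999457, minus strand: cgagagctgtgtCTCTTTCTaagccggcac
Rpl35a, chr11:81235004-81235033, minus strand: ggtcttgccttcCTCTTTCCgccatcttgg
Of the 52 members, 31 have no such run at the annotated start, so the lines above do not represent the members. Rps24, which also rose in exposed hippocampus at P7, has none, nor have Rps6, Rpsa and Rpl41. The annotated starts of Rpl23 and Rpl3, which also moved by large amounts, have no such run either.
Rpl23, chr10:83272167-83272196, minus strand: aacttcctttctgactctttccggacgctc
Rpl3, chr7:113507973-113508002, minus strand: gcgcctgctcgatctctatcggcggcgtgt
Within 10 bases before to 15 bases after the start, the same run was found in 40 members (76.9%) and in 28.9% of all promoters. Members with the run at the annotated start and members without it differed by these median amounts, respectively: -0.67 and -0.76 log2 units from P7 to P14 in control hippocampus, -0.75 and -0.82 with exposure at P7, and 0.67 and 0.79 with exposure at P75.

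In control hippocampus the members were highest at P7 and lower at each step until P21. The mean log2 intensity over the members was 11.61 ± 0.05 at P7, 10.81 ± 0.09 at P14, 10.28 ± 0.05 at P21 and 10.28 ± 0.03 at P75 (SD, n = 5 each). No P14 array reached the lowest P7 array, with ranges of 11.55 to 11.68 and 10.68 to 10.92.

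**Figure D1:**
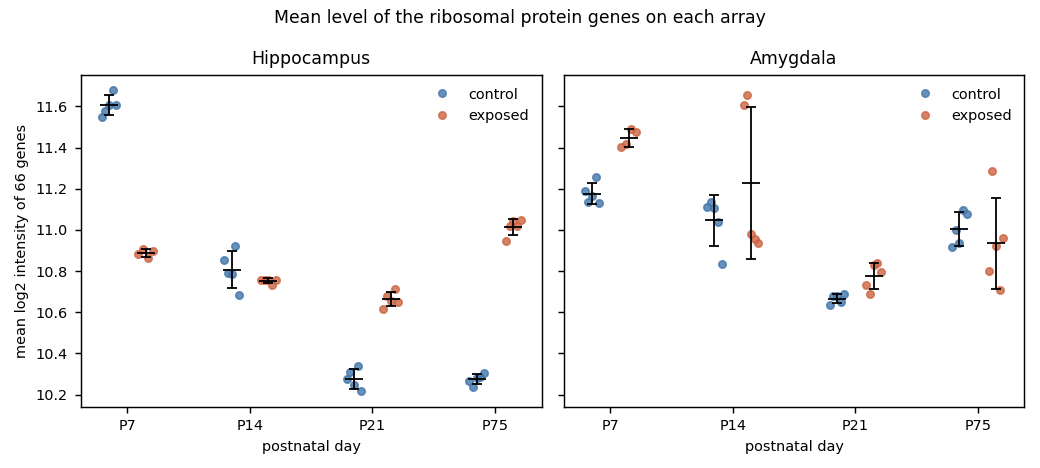
Mean log2 intensity over the 66 ribosomal protein genes in each array (points), by postnatal age, region and treatment, with the group mean and SD as bars. In control hippocampus the mean runs from 11.61 at P7 to 10.28 at P75, while exposed hippocampus stays between 10.66 and 11.02; in exposed amygdala at P14 the arrays spread from 10.94 to 11.66.

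From P7 to P14 in control hippocampus, 60 of the 66 members fell and none rose, where 12% of all named genes fell (limma, Benjamini-Hochberg adjusted p under 0.05 over all features). At the same threshold, 961 of the 9621 named genes rose. The median member difference was -0.80 log2 units. Among the 929 other bright genes the median difference was 0.05, with 300 higher and 219 lower, and over all named genes it was 0.00. The member count stayed between 55 and 61 under every alternative tried, 57 with the control probe as a covariate. Rpsa, the small subunit protein also known as the laminin receptor, read 14.12, 14.40, 14.18, 14.37 and 14.35 in the 5 P7 arrays and 12.73, 12.79, 13.01, 13.18 and 12.81 in the 5 P14 arrays. The ranges of Rpsa did not meet, and the difference was -1.38 ± 0.10 log2 units (SE; adjusted p = 6.97e-14). Rpl8, which sits near the peptidyl transferase centre, read 11.55, 11.66, 11.70, 11.75 and 11.73 at P7 and 9.99, 9.98, 10.27, 10.46 and 10.19 at P14. It was also lower in every P14 array, with a difference of -1.50 ± 0.15 log2 units (adjusted p = 4.47e-10).

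The largest fall of this step was that of Rps18, a small subunit head protein, named after its values were seen. It read 12.19 to 12.54 at P7 and 10.48 to 11.01 at P14, a difference of -1.63 ± 0.11 log2 units (adjusted p = 2.19e-14). Differences of other called members of the naming rule were -1.42 for Rpl10, which joins the large subunit late in its assembly, -1.21 for the stalk base Rplp0, -0.73 for Rpl23, -0.72 for Rpl13a and -0.65 for Rps6, the substrate of the S6 kinases. The 6 members that did not pass the test were Rpl28 (0.20), Rpl36, Rpl9, Rps15 (-0.05), Rps26 (-0.02) and Rps27, also named after their values were seen. Among them, Rpl28, Rps15 and Rps26 were also 3 of the 4 members that stood against the majority with exposure at P7. Both comparisons subtract the same control P7 arrays, so these 2 results are not independent of each other.

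Between P14 and P21 in control hippocampus 45 members fell and 3 rose, where 34.2% of named genes fell and 20.9% rose. The median member difference was -0.55 and that of the other bright genes, which are brighter than many members, was -0.68. Over named genes, members included, the median was -0.668 in the brightest 10%, -0.566 in the next 10% and -0.517 in the 10% below that. The member median lay within this range, so it does not show a smaller fall than in genes of like brightness. The risers were Rpl11 (0.27), Rpl18 (0.27) and Rps15 (0.41). This step depended on scaling: 15 members rose and 29 fell after quantile normalisation, 16 rose and 24 fell after cyclic loess, and with the control probe as a covariate no member passed. Between P21 and P75 in controls no member passed limma's test in either direction, where 1.11% of named genes rose and 1.22% fell. At an unadjusted p under 0.05, 7 members were higher and 5 lower, and the unpaired test per gene called none.

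Over the whole span from P7 to P75, 62 members fell in control hippocampus, where 33.6% of named genes fell, and 2 rose, where 26.7% rose. The median member difference was -1.40, against -0.62 for the other bright genes. Rpl8 fell by 2.81, Rps2, which lies at the messenger entry channel, fell by 2.71, and Rpsa fell by 2.54 ± 0.10 log2 units (SE; adjusted p = 1.4e-22). The members that rose were Rpl28 (0.33) and Rps15 (0.36). With the control probe as a covariate 5 members passed, all lower, at a median of -0.97.

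In exposed hippocampus the member mean became slightly lower until P21 and was highest at P75: 10.89 ± 0.02 at P7 (n = 4), 10.75 ± 0.01 at P14, 10.66 ± 0.04 at P21 and 11.02 ± 0.04 at P75 (SD, n = 5). From P7 to P14, 6 members fell (Rpl28, Rpl32, Rps20, Rps24, Rps26 and Rps4x), where 3.80% of named genes fell, and the median of all members was -0.16 against 0.39 for the other bright genes. No member rose, while 1220 of the 9621 named genes and 514 of the 929 other bright genes did. The count of falls was 15 after quantile normalisation, 24 after cyclic loess, 10 by the unpaired test and 1 with the control probe as a covariate. No member passed limma's test from P14 to P21, where 1.76% of named genes rose and 1.09% fell; at an unadjusted p under 0.05, 7 were lower, and the unpaired test per gene called 3. From P21 to P75, when exposure had ended, 35 members rose and none fell, where 15.8% of named genes rose and 633 of the 9621 fell. The member median of this last step was 0.33 and that of the other bright genes 0.26, and Rpl23 (0.97), Rpl8 (0.90), Rpl37l1 (0.86) and Rps21 (0.85) rose by large amounts. Over P7 to P75, 20 members rose and 7 fell, where 26.5% of named genes rose and 13.2% fell. The member median was 0.08, while the other bright genes had a median of 0.69, with 677 higher and 70 lower. The balance of the members turned with scaling, to 9 higher and 15 lower after quantile normalisation and 9 higher and 20 lower after cyclic loess, and with the control probe as a covariate 3 were higher and 2 lower. Rpl8 rose by 1.06, Rpl23 by 0.88, Rps3, a small subunit protein at the messenger entry, by 0.80 and Rpl3, a neighbour of the peptidyl transferase centre, by 0.69.

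The exposed minus control difference in hippocampus therefore ran from mostly lower at P7 to higher at P75. These comparisons share no arrays with each other, but each shares its arrays with the age steps above.

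**Figure D2:**
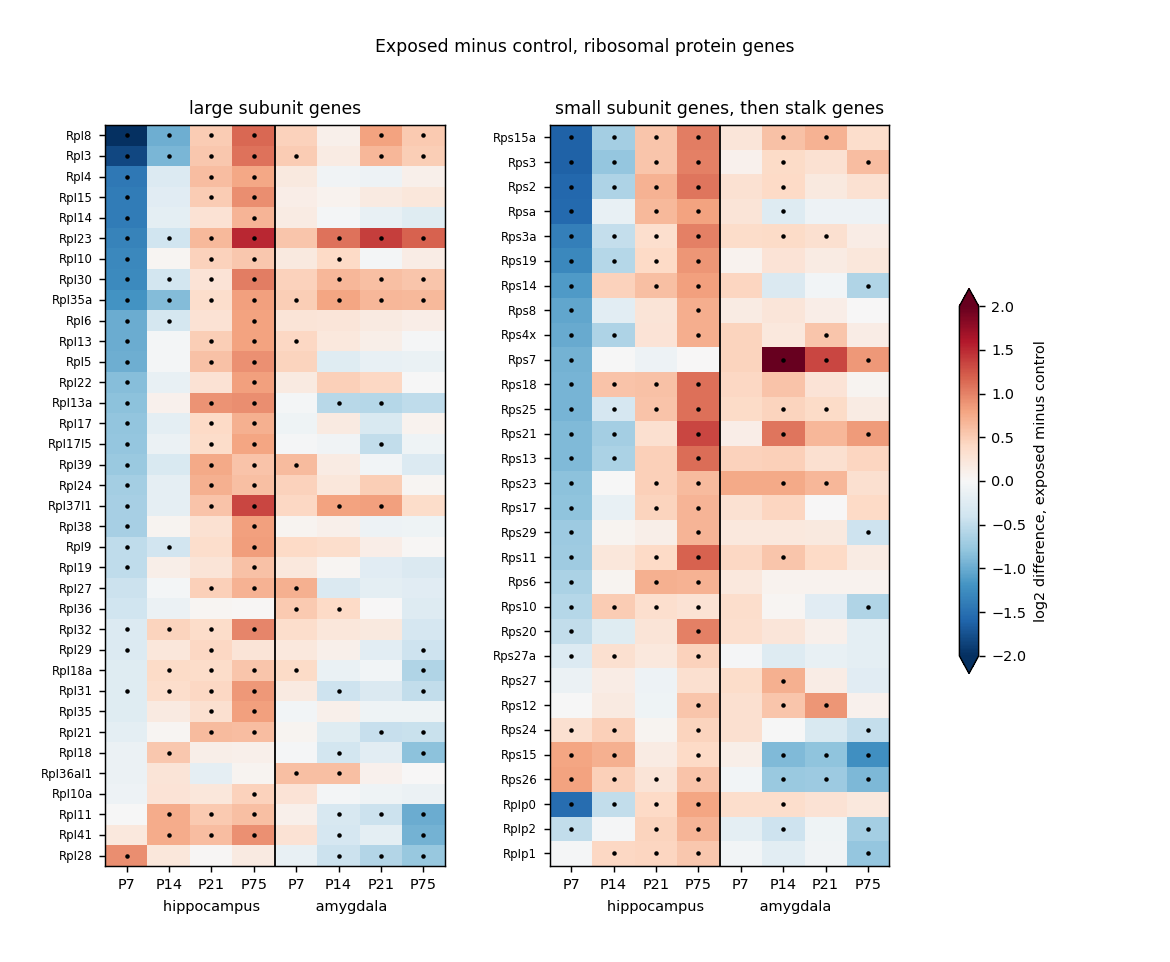
Exposed minus control difference in log2 intensity for each of the 66 members (rows) at each age and region (columns), with a dot where the adjusted p is under 0.05. Hippocampal columns go from mostly blue at P7 (49 lower) to red at P75 (59 higher), and the amygdala columns are mixed.

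At P7, 49 members were lower in exposed hippocampus, where 33.7% of named genes were lower, and 4 were higher, where 19.8% were higher. The median member difference was -0.77, and that of the other bright genes was -0.71. Array ranges did not overlap for 50 of the 66 members (75.8%), as for 40.9% of named genes and 75.1% of the other bright genes. Rpl8 read 8.82, 8.47, 9.31 and 9.19 in the exposed arrays against 11.55 to 11.75 in the controls. Its groups were far apart and its difference was the largest of the members, 6.63-fold lower (-2.73 ± 0.16 log2 units, SE; adjusted p = 6.1e-17). Rpl3 read 9.67, 9.60, 9.42 and 9.44 against 11.09 to 11.50 in controls and was 3.52-fold lower (-1.82 ± 0.14; adjusted p = 2.27e-13). Rps3 was 3.07-fold lower (-1.62 ± 0.13; adjusted p = 8.73e-13). With the control probe as a covariate the median was -0.54 and 6 members passed, all lower. Replicates 1 and 2 of the exposed arrays lay apart from replicates 3 and 4 on the second principal component, and 46 members were lower without the first pair and 44 without the second.

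The 4 members called higher at P7 were Rpl28, Rps15, Rps26 and Rps24. Rpl28, a large subunit protein found in eukaryotes, read 13.68, 13.60, 13.17 and 13.32 in exposed arrays and 12.61, 12.51, 12.31, 12.57 and 12.57 in controls. Rps15, a small subunit protein near the decoding site, read 11.22, 11.21, 11.16 and 11.20 against 10.46, 10.56, 10.47, 10.52 and 10.02. Rps26, at the messenger exit channel, read 11.99, 12, 12.01 and 11.80 against 11.22, 11.07, 11.18, 11.29 and 10.95. All exposed arrays lay above all control arrays for these 3 genes, by 0.93 ± 0.11, 0.79 ± 0.13 and 0.81 ± 0.10 log2 units (SE; adjusted p = 1.11e-08, 2.39e-06 and 1.94e-08). Rps24 was higher by 0.32 ± 0.14 (adjusted p = 0.0432).

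**Figure D3:**
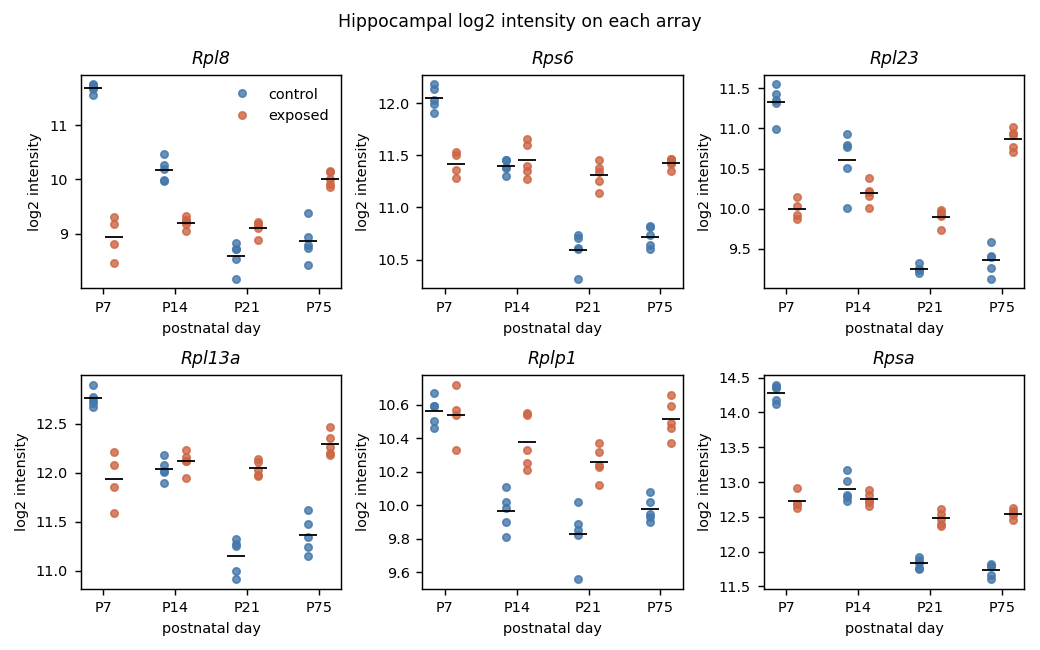
Log2 intensity of Rpl8, Rps6, Rpl23, Rpl13a, Rplp1 and Rpsa in every hippocampal array by postnatal age, control and exposed arrays apart, with group means as bars; each panel has its own axis, which does not start at 0. Control arrays of Rpl8 run from 11.55 to 11.75 at P7 and exposed ones from 8.47 to 9.31, whereas the P7 arrays of Rplp1 overlap.

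Proteins that act together were not always alike at the messenger level. Of the stalk genes, which recruit elongation factors to the ribosome, Rplp0 was lower at P7 (-1.52), Rplp2 was lower (-0.49) and Rplp1 did not pass the test (-0.02, adjusted p = 0.873). Rplp1 read 10.54, 10.57, 10.33 and 10.72 in exposed arrays and 10.59, 10.50, 10.67, 10.46 and 10.59 in controls, so the groups overlapped. Of the genes for the 5S particle, which also holds back the p53 regulator Mdm2, Rpl5 was lower (-0.98) and Rpl11 did not pass the test (-0.00, adjusted p = 0.98). Quantile normalisation turned Rplp1 and Rpl11 to 0.32 each at P7.

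At P14 the members split, with 13 higher (11.7% of named genes) and 17 lower (26.5%) in exposed hippocampus. Their median was -0.04 where the other bright genes were at -0.37, and ranges did not overlap for 28 members (42.4%), 26.7% of named genes and 56.7% of the other bright genes. The balance turned with scaling, to 25 higher and 12 lower after quantile normalisation and 22 higher and 12 lower after cyclic loess. Rpl8 (-0.97 ± 0.15), Rpl3 (-0.91 ± 0.13) and Rpl35a (-0.87 ± 0.12) were the lowest, and Rpl11 (0.75 ± 0.10), Rpl41 (0.74 ± 0.09) and Rps15 (0.72 ± 0.12) the highest. Rpl41, the smallest ribosomal protein, read 14.23, 14.18, 14.03, 14.17 and 14.04 in exposed arrays and 13.45, 13.47, 13.22, 13.34 and 13.49 in controls. The Rpl41 groups were clear of each other (adjusted p = 6.4e-08). Leaving out control replicates 4 and 5, which lay apart on the first principal component of hippocampal arrays, left 13 higher and 15 lower.

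At P21, 43 members were higher in exposed hippocampus (15.6% of named genes) and none lower (9.47%; at an unadjusted p under 0.05 also 0, and 0 by the unpaired test). The median was 0.40, against 0.32 for the other bright genes, and ranges of 38 members (57.6%) did not overlap, as in 20.4% of named genes and 56.4% of the other bright genes. Rpl13a, which in human cells also acts outside the ribosome as a translational repressor, read 11.97, 11.98, 12.11, 12.03 and 12.14 in exposed arrays and 11.25, 11.33, 11.00, 11.27 and 10.92 in controls. It was the highest member with a gap between the groups (0.89 ± 0.11; adjusted p = 7.86e-07), followed by Rpl39 (0.76 ± 0.19), Rpl24 (0.72 ± 0.16) and Rps6 (0.72 ± 0.10). Rps6 read 11.14 to 11.45 in exposed and 10.32 to 10.74 in control arrays. The count fell to 28 after quantile normalisation and 16 after cyclic loess, and none passed with the control probe as a covariate, where the median was 0.26.

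At P75, 59 members were higher (28.6% of named genes) and none lower (15.0%; at an unadjusted p under 0.05 also 0, and 0 by the unpaired test). All 66 member differences were above 0, with a median of 0.79 against 0.58 for the other bright genes, and 54 had ranges that did not overlap (81.8%, beside 26.7% of named genes and 82% of the other bright genes). Rpl23, which in human cells also binds Mdm2, read 10.92, 11.02, 10.94, 10.77 and 10.71 in exposed arrays and 9.40, 9.13, 9.41, 9.26 and 9.59 in controls. The exposed arrays were all higher, 2.86-fold on average (1.51 ± 0.13 log2 units; adjusted p = 4.31e-11). Rps21, of the small subunit, was 2.54-fold higher, with 10.00 to 10.37 in exposed and 8.73 to 8.92 in control arrays. Rpl37l1 was 2.53-fold and Rpl8 2.22-fold higher. With the control probe as a covariate no member passed, at a median of 0.55.

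**Figure D4:**
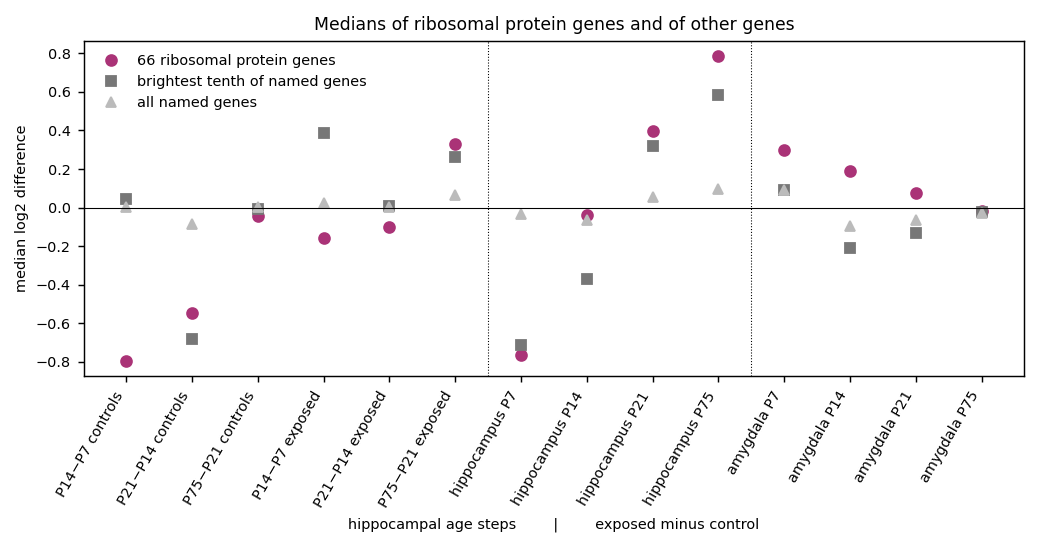
Median log2 difference, exposed minus control at each age and region, for the 66 members (circles), the 929 other bright genes (squares) and all named genes (triangles), and of the hippocampal age steps on the left. In hippocampus the exposure medians of members are -0.77, -0.04, 0.40 and 0.79 from P7 to P75 and those of the other bright genes -0.71, -0.37, 0.32 and 0.58; in the control step from P7 to P14 the members lie at -0.80 and the other bright genes at 0.05.

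The change of the hippocampal difference with age passed the F test for 62 of 66 members (93.9%), where 62.8% of named genes and 90.2% of the other bright genes passed. With the control probe as a covariate 36 members passed. The exceptions were Rpl36, Rpl36al1, Rps24 and Rps27. The smallest adjusted p were those of Rpl8 (4.01e-17), Rps2 (4.4e-17) and Rpsa (8.88e-17). Lower at P7 and higher at P75 were 47 members (71.2%), as were 597 of the 929 other bright genes (64.3%) and 2083 of all named genes (21.7%). Rps6, which was lower by 0.63 at P7, was higher by 0.70 at P75, and Rps19, a gene of inherited red cell aplasia in humans, went from -1.29 to 0.88. Rps27a, made as a fusion with ubiquitin, was also called lower at P7 (-0.27) and higher at P75 (0.46), by less than Rps6 or Rps19. Rps14, another small subunit gene, went from -1.13 to 0.82 and Rpl22 from -0.85 to 0.82.

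In amygdala members moved in both directions with exposure. The control means over the members were 11.18 ± 0.05, 11.05 ± 0.13, 10.67 ± 0.02 and 11.01 ± 0.08 at P7, P14, P21 and P75 (SD, n = 5). The exposed means were 11.45 ± 0.04 (n = 4), 11.23 ± 0.37, 10.78 ± 0.06 and 10.94 ± 0.22 (n = 5). The exposed P14 group had the widest spread, and its arrays fell apart. Replicates 1 and 2 lay above replicates 3 to 5 by a median of 0.54 over the members. They were higher by over 1 log2 unit for 13 members and for 39 of the 9621 named genes, members included. Named genes lower by over 1 log2 unit were not counted. The next largest such member median in any group was 0.17, in exposed amygdala at P75. The choroid plexus gene Ttr read 11.47, 11.57, 9.70, 8.79 and 8.75 in these 5 arrays and the radial glia gene Fabp7 read 13.37, 13.31, 11.06, 11.15 and 10.92, both named after their values were seen. In the P14 controls Ttr read 11.38 to 12.16 and Fabp7 11.46 to 11.98. For Ttr, replicates 1 and 2 thus lay within the control range and replicates 3 to 5 below it. For Fabp7, replicates 1 and 2 lay above the control range and replicates 3 to 5 below it. The 6 measured choroid plexus markers together averaged 8.10 to 8.69 in these arrays and 8.28 to 8.65 in the controls, and the part of choroid plexus or radial glial RNA in the split was not tested.

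**Figure D5:**
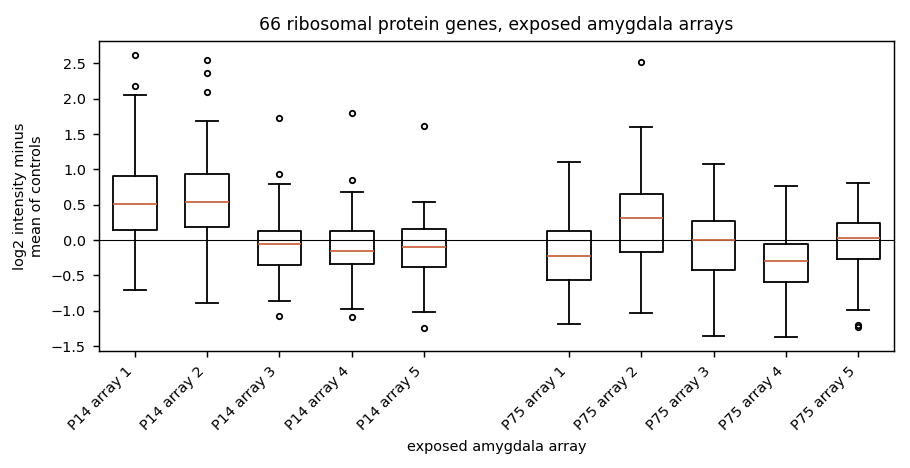
Log2 intensity of the 66 members in each exposed amygdalar array at P14 and P75, each minus the mean of the control arrays of that age; boxes give quartiles, the line the median, whiskers 1.5 interquartile ranges and circles members beyond them. At P14 the boxes of replicates 1 and 2 lie above 0 and those of replicates 3 to 5 span it, and at P75 replicate 2 is the highest.

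At P7, 8 members were higher in exposed amygdala (6.32% of named genes) and none lower (1.75%; also 0 at an unadjusted p under 0.05 and 0 by the unpaired test). Ranges did not overlap for 24 members (36.4%), beside 10.1% of named genes and 14.2% of the other bright genes. The median was 0.30, with 0.09 for the other bright genes, and the highest of the called members were Rpl27 (0.70 ± 0.15), Rpl39 (0.63 ± 0.19) and Rpl36al1 (0.61 ± 0.17). The count was unstable, at 0 to 17 under the alternatives: leaving out exposed replicate 3 left 1, control replicate 2 left 2, exposed replicate 4 left 2, exposed replicate 2 left 3, control replicate 5 left 4 and control replicate 3 left 5.

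At P14, 19 members were higher (13.8% of named genes) and 10 lower (20.9%), with a median of 0.19 against -0.21 for the other bright genes. Ranges did not overlap for 9 members (13.6%), 21.4% of named genes and 42.8% of the other bright genes. Without exposed replicates 1 and 2, 5 were higher and 16 lower at a median of -0.09, and without replicates 3 to 5, 37 were higher and 1 lower. Leaving out replicate 1 alone left 9 higher and 13 lower, and replicate 2 alone 12 higher and 10 lower. Rps7, a small subunit assembly protein, kept its call: it read 13.18, 13.11, 12.28, 12.36 and 12.18 in exposed arrays and 10.73, 10.86, 10.88, 10.64 and 9.67 in controls. The groups were apart and the difference was 4.19-fold (2.07 ± 0.23 log2 units; adjusted p = 2.44e-08), or 1.72 ± 0.25 without replicates 1 and 2 (adjusted p = 5.01e-06). Rpl23 did not keep it. It read 12.42, 12.34, 10.70, 10.60 and 10.55 against 9.87 to 10.42, a difference of 1.08 ± 0.30 (adjusted p = 0.0042), and 0.38 without those replicates (adjusted p = 0.277). Rps21 (1.06 ± 0.29) read 11.45 and 11.77 in replicates 1 and 2 and 9.57, 9.75 and 9.79 in the others. The lowest members were Rps15 (-0.88 ± 0.12), Rps26 (-0.74 ± 0.13) and Rpl13a (-0.55 ± 0.20).

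At P21, 13 members were higher (9.60% of named genes) and 7 lower (15.8%), with a median of 0.08 against -0.13 for the other bright genes and 32 members with ranges that did not overlap (48.5%, beside 26.3% of named genes and 48.9% of the other bright genes). A fit of only these 2 groups called 21 higher and 10 lower. Rpl23 read 10.83, 10.78, 11.26, 10.89 and 10.93 in exposed arrays and 9.50, 9.56, 9.69, 9.35 and 9.66 in controls, well apart (1.39 ± 0.30; adjusted p = 6.48e-04). Rps7 (1.33 ± 0.23) and Rps12 (0.88 ± 0.17), both of the small subunit, were also higher. Rps15 (-0.81 ± 0.12), Rps26 (-0.72 ± 0.13) and Rpl28 (-0.58 ± 0.11) were the lowest. In the same comparison the choroid plexus list averaged 7.64 to 8.09 in control and 8.88 to 9.02 in exposed arrays, with 3 of 6 markers higher, and the red cell list 10.24 to 10.48 and 10.68 to 10.88, with 2 of 5 higher, and their part was not tested.

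At P75, 8 members were higher (9.91% of named genes) and 16 lower (12.1%), with a median of -0.02 against -0.03 for the other bright genes. Ranges did not overlap for 17 members (25.8%), beside 13.9% of named genes and 42.1% of the other bright genes. Rps15 read 10.09, 10.22, 9.89, 9.88 and 10.03 in exposed arrays and 11.34, 11.12, 11.32, 11.23 and 11.26 in controls. It was lower in every exposed array, 2.35-fold (-1.23 ± 0.12; adjusted p = 3.09e-09). Rpl11 read 11.60, 11.82, 11.85, 11.51 and 11.70 against 12.66 to 12.72 (-0.99 ± 0.11; adjusted p = 2.86e-08), and Rpl41 read 12.71 to 13.15 against 13.81 to 13.99 (-0.94 ± 0.11; adjusted p = 2.6e-08). Both genes were thus lower without overlap. Rpl23 (1.17 ± 0.30), Rps7 (0.86 ± 0.23) and Rps21 (0.85 ± 0.29) were the highest, with exposed replicate 2 of Rpl23 at 12.66 and the others at 10.89 to 11.16. Without exposed replicates 1 and 2, 5 members were higher and 17 lower. The astrocyte list averaged 12.13 to 12.26 in control and 12.56 to 12.93 in exposed arrays at P75, with 6 of 7 markers higher, and the red cell list 10.20 to 10.47 and 9.53 to 9.97, with 3 of 5 lower, and their part was not tested.

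Over age in amygdala, 11 members fell and 2 rose from P7 to P75 in controls, where 13.2% of named genes fell and 13.1% rose; centring arrays on their median changed this to 21 lower and none higher, and the control probe as a covariate to 7 lower and 2 higher. The member median was -0.16 and that of the other bright genes -0.06. In exposed amygdala 39 fell and 1 rose, where 23.4% fell and 14.3% rose, at a median of -0.54 against -0.20 for the other bright genes. Rpsa (-1.66), Rpl41 (-1.59) and Rpl11 (-1.27) had the smallest p, and Rps7 rose (0.79). In controls the smallest p were those of Rpsa (-1.30), Rplp0 (-1.15) and Rps2 (-1.08). From P7 to P14 in control amygdala, Rpl41 (-0.58) and Rpsa (-0.36) fell, where 2.35% of named genes fell, and Rpl27 rose (0.45), where 6.37% rose. Without P7 replicate 4, P7 replicate 5 or P14 replicate 5 the count of falls was 1, and the fit of only the groups compared gave 0. In exposed amygdala 23 members fell over that step, where 23.9% of named genes fell, and Rps7 rose (1.22), where 13.1% rose, with Rpl41 (-1.21) and Rpsa (-0.88) among the falls. The member median was -0.22 and that of the other bright genes -0.17. Quantile normalisation gave 11 lower and 3 higher, cyclic loess 10 and 4, and the unpaired test 12 lower. From P14 to P21, 23 members fell in controls, where 6.66% of named genes fell, and 21 in exposed animals, where 2.58% fell. The medians were -0.40 and -0.44, beside -0.09 and 0.02 for the other bright genes. Of these, 11 were called in both arms, 47.8% of the control list and 52.4% of the exposed list, among them Rpsa, Rps2, Rplp0, Rplp1 and Rpl41. Over all named genes 164 fell in both arms, 25.6% of the control list and 66.1% of the exposed list. The exposed count was 8 without P14 replicate 1, 9 without P14 replicate 2 and 13 without P21 replicate 2. From P21 to P75, 13 members rose in control amygdala, where 0.998% of named genes rose, at a median of 0.31 against -0.13 for the other bright genes. Leaving out 1 array at a time gave 6 to 10. In exposed amygdala over the same step, Rps3 (0.53) and Rpl17l5 (0.48) rose, where 1.31% of named genes rose, and Rpl18 fell (-0.41), where 1.78% fell. The number that rose was 5 without P75 replicate 1, 1 without P21 replicate 2 or 3 or P75 replicate 3 or 5, and 0 in the fit of only the groups compared.

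The difference in exposure effect with age passed the F test for 23 members in amygdala (34.8%), where 31.3% of named genes and 53.3% of the other bright genes passed. Rpl41 (adjusted p = 5.19e-06), Rps15 (1.08e-05) and Rpl11 (6.84e-05) had the smallest values. Rpl35a, a large subunit gene, was called higher in 6 of the 8 exposure comparisons of both regions, the most of any member. Rpl10a and Rps27 were called in 1 each, the fewest.

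The exposure effect was then tested between regions, as the hippocampal minus the amygdalar difference at each age. It passed for 54 members at P7 (50.5% of named genes), of which 51 were more negative in hippocampus, at a median of -1.06. The other bright genes passed at 78.1% with a median of -0.80, and with the control probe as a covariate 12 members were more negative and 2 more positive. At P14, 34 members passed (29.1% of named genes), with 15 more positive and 19 more negative in hippocampus, while 62.5% of the other bright genes passed. The exposed amygdalar group of this test includes replicates 1 and 2, which lay above the others by a member median of 0.54. The region test was not repeated without that pair. At P21, 29 passed (36.4% of named genes; 62.3% of the other bright genes), of which 27 were more positive, but cyclic loess gave 8 more positive and 10 more negative, quantile normalisation 14 and 6, and the control probe 4 and 3. At P75, 53 passed (37.8% of named genes), of which 52 were more positive in hippocampus, at a median of 0.82. The other bright genes passed at 74.6% with a median of 0.63, and cyclic loess left 31 members more positive and 1 more negative. The largest were Rpl41 (1.85), Rps15 (1.64) and Rpl11 (1.59), and the single negative one was Rps7 (-0.86).

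No member was called in the same direction in both regions at P7 or P14. Of all named genes, 0.0312% were lower and 0.197% higher in both at P7, and 6.68% lower and 4.2% higher in both at P14. At P7, Rpl13, Rpl3, Rpl35a and Rpl39 (6.06%) were lower in exposed hippocampus and higher in exposed amygdala, as were 4.53% of named genes. At P14, Rpl11, Rpl18, Rpl31, Rpl41, Rps15 and Rps26 were higher in exposed hippocampus and lower in exposed amygdala, and all 6 remained so without amygdalar replicates 1 and 2. They make up 9.09% of the members, and 1.40% of named genes had this pair of calls. The opposite pair of calls, lower in hippocampus and higher in amygdala, held for 10 members at P14 (15.2%, against 2.83% of named genes), of which only Rpl30 and Rpl35a remained without those replicates. At P21, 10 members (15.2%) were higher in both regions, against 1.09% of named genes, and 5 (Rpl11, Rpl13a, Rpl17l5, Rpl21 and Rps26; 7.58%) were higher in hippocampus and lower in amygdala, against 5.63%. At P75, 13 members (19.7%, against 5.53% of named genes) were higher in hippocampus and lower in amygdala, among them Rpl11, Rpl41, Rps15, Rps26, Rplp1 and Rplp2. Higher in both regions at P75 were Rpl23, Rpl3, Rpl30, Rpl35a, Rpl8, Rps21 and Rps3 (10.6% of members, against 5.64% of named genes). These pairs of calls were not counted for the other bright genes, so they cannot be read as particular to the members. At P75, 792 of those 929 genes were higher and 16 lower in hippocampus, and 207 higher and 282 lower in amygdala. At P21, 536 were higher and 16 lower in hippocampus, and 120 higher and 292 lower in amygdala.

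Other translation genes were counted beside the members, from lists that were chosen with earlier results of these data known. From P7 to P14 in control hippocampus, 12 of 13 measured elongation factor and other TOP messenger genes fell, at a median of -0.57, as did 10 of 16 initiation factors (-0.51) and 13 of 28 biogenesis genes (-0.36), and none of these rose. Of the 929 other bright genes 219 fell and 300 rose, and 12% of named genes fell. Of 24 mitochondrial ribosomal protein genes, which serve the separate ribosomes of mitochondria, 2 fell and 1 rose (-0.10). Over the same step all 7 oligodendrocyte markers rose (2.85), 4 of 7 astrocyte markers rose and 1 fell (0.29), and of 7 neuron markers 3 rose and 2 fell (0.17). The part of cell composition in the members' fall was not tested.

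With exposure in hippocampus at P7, 13 of 13 elongation and TOP genes (-0.96) and 14 of 16 initiation factors (-1.48) were lower, whereas of the mitochondrial ribosomal protein genes 7 were lower and 4 higher (-0.06). Lower in that comparison were 33.7% of named genes and 638 of the 929 other bright genes, the latter at a median of -0.71. In the same comparison 6 of 7 astrocyte markers were lower (-1.70), with list means of 12.36 to 12.50 log2 units in control and 10.85 to 11.01 in exposed arrays. Of 7 neuron markers 5 were lower and 2 higher (13.61 to 13.68 in control and 12.80 to 12.88 in exposed arrays), of 6 vascular markers 3 were lower (9.28 to 9.54 and 8.52 to 8.88), and of 6 choroid plexus markers 5 were higher (8.01 to 8.13 and 9.03 to 9.19). The part of these cell types in the members' differences was not tested. Also at P7, 459 of the 1239 olfactory and vomeronasal receptor genes were higher and 4 lower (0.43). At P75, 12 elongation and TOP genes (0.59), 12 initiation factors (0.70) and 9 mitochondrial ribosomal protein genes (0.28) were higher, with 5 of 7 astrocyte and 7 of 7 neuron markers, while 287 receptor genes were lower and 37 higher (-0.21). Eef2, the elongation factor that moves the ribosome along, was at -1.56, -0.82, 0.45 and 0.75 at P7, P14, P21 and P75. Fau, which encodes a small subunit protein fused to a ubiquitin-like part, was higher at all 4 ages (0.33, 0.42, 0.55 and 0.49), unlike Rack1, the scaffold on the small subunit, which was at -1.08, -0.34, 0.33 and 0.86.

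The authors' deposited tables list features past a fold of 1.5 and a Bonferroni-corrected p of 0.05. For hippocampus, the authors' deposited table listed 15 members among 722 features at P7, all down, with Rpl8 (6.63-fold) and Rpl3 (3.52-fold) among them, and 15 among 360 at P75, all up. In the authors' deposited tables for hippocampus, P14 held 3 members among 307 features (Rpl41 up, Rps15a and Rps2 down) and P21 held 5 among 80, all up. For amygdala, the authors' deposited tables listed 0 members at P7, Rps15 (down) among 150 features at P14, 5 members among 187 at P21 (Rpl23, Rpl37l1, Rps7 and Rps12 up, Rps26 down) and 4 among 80 at P75 (Rpl11, Rpl41 and Rps15 down, Rpl35a up). The authors' deposited table for hippocampus at P75 also named Rps9 (up, 1.73-fold), which is not among the members because its feature was not named by the RefSeq table.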

How the data were processed

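Hippocampus and amygdala of rat offspring were measured on 78 arrays in 16 groups. Per the labels' protocols, RNA was extracted with TRIzol, amplified, converted to double-stranded cDNA, labelled with Cy3 and hybridised to 1-colour NimbleGen arrays. The deposited values are linear intensity values normalised by the authors; the normalisation is not given in the sources used here. Per the file headers, the 8 deposited comparison tables hold absolute fold changes (ratio) and Bonferroni-corrected p-values of 0.05 or less from an unpaired t-test, for features past a fold of 1.5, and name RMA in their value columns; 312 per-array columns of these tables matched no label and were not used.

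Deposited intensities were put on the log2 scale. limma 3.58.1 (R 4.3.3) fitted all 8 groups of a region together (lmFit, eBayes); p-values are two-sided and Benjamini-Hochberg adjusted over all 26419 features, and a call means an adjusted p under 0.05. Region by treatment effects came from a fit over both regions. Counts over all genes refer to the 9621 genes named through RefSeq; where a gene had several features the one with the highest mean was used, and each member had 1. The fit was tested on simulated data. The number of arrays limits the precision.

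The members, gene lists and tests were chosen with earlier results of these data known. Named members are the 3 largest rises and falls of each exposure comparison, those called against the majority, stalk, 5S particle and other listed genes, those with the smallest p of F tests and P75 minus P7 contrasts, and those called most and least often. Members named in the counts of age steps, region pairs and array splits beyond these were chosen after their values were seen. The steps between neighbouring ages and 3 of the sets of left-out amygdalar arrays were chosen after seeing the data. Alternatives covered normalisation (quantile, cyclic loess, median centring), dim features, moderation, array weights, the control probe, replicate numbers, the groups in the fit, the unpaired test and left-out arrays.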

Additional observations from a re-analysis of the deposited data

Results flagged for a closer look

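Of 112 sets of 4 or 5 arrays of one group, 4 held an array far from the others by Dixon's 95% criterion, and chance flags about 1 in 20 such sets. The mean over the members in exposed hippocampus at P14 was lowest in replicate 4 (10.73, the others 10.75 to 10.76 log2 units). Rplp1 in control amygdala at P7 was highest in replicate 4 (11.26, the others 10.59 to 10.76). Rpsa in exposed amygdala at P7 was highest in replicate 2 (14.41, the others 14.13 to 14.17). Rpl23 in exposed amygdala at P75 was highest in replicate 2 (12.66, the others 10.89 to 11.16).

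The exposure difference changed with age by limma's F test for 62 members in hippocampus and 23 in amygdala. It differed between the regions by limma's test of that difference for 54 members at P7, 34 at P14, 29 at P21 and 53 at P75. The cause of these differences was not tested.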

How the results depend on the processing

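Of 30 counts of members called, 592 values under alternatives stayed within 1.5 times the value reported and 97 moved further; of 352 differences of 44 named members, 6644 alternative values kept direction and side of the threshold, 444 lost it, 152 gained it and 20 turned sign. The cause was not tested for any of them. The fall of 60 members from P7 to P14 in control hippocampus stayed at 55 to 61. Hippocampal exposure counts moved with the control probe as a covariate to 6 lower (P7), 5 lower (P14), 0 (P21) and 0 (P75), the P75 minus P7 count of controls to 5 lower, that of exposed animals to 3, the F count to 36, the P21 minus P14 count of controls to 0 and the P14 minus P7 count of exposed animals to 1; in amygdala it gave 0 at P7 7 for P75 minus P7 and 4 for P14 minus P7 in controls, and 12 (P7) and 4 (P21) between regions. Quantile normalisation gave 28 at hippocampal P21, 1 at amygdalar P7, 9 for P75 minus P7 in exposed hippocampus, 14 between regions at P21, 29 for P21 minus P14 in control hippocampus and 15 and 11 for P14 minus P7 in exposed hippocampus and amygdala. Cyclic loess gave 16, 1, 9, 8, 24, 24 and 10 for the same counts, 31 between regions at P75 and 1 for P21 minus P14 in exposed hippocampus. Median centring gave 1 at amygdalar P7, 21 for P75 minus P7 and 44 for P21 minus P14 in control amygdala, and 1 for P21 minus P14 in exposed hippocampus. With it the median of all features was 0.111 log2 units for hippocampal P75, -0.146 for amygdalar P14, -0.107 for P21 minus P14 in control amygdala, -0.0362 (0.081 before) for amygdalar P7 and 0.132, 0.117 and 0.172 between regions at P7, P21 and P75.

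A fit of only the groups compared gave 11 lower at hippocampal P14, 0, 7 and 21 higher at amygdalar P7, P14 and P21, 13 for P75 minus P7 in exposed hippocampus 8, 13 and 0 for P21 minus P14, P14 minus P7 and P75 minus P21 in exposed amygdala and 0 for P14 minus P7 in control amygdala. The unpaired test gave 2, 5 and 23 at amygdalar P7, P14 and P21, 17, 27 and 1 for P75 minus P7, P75 minus P21 and P14 minus P7 in control amygdala, 9, 12 and 0 for P21 minus P14, P14 minus P7 and P75 minus P21 in exposed amygdala, and 10 and 3 for P14 minus P7 and P21 minus P14 in exposed hippocampus. Leaving out the dimmer features gave 17 at amygdalar P7, 36 for P21 minus P14 and 4 for P75 minus P21 in exposed amygdala, 1 for P75 minus P21 in control and 2 for P21 minus P14 in exposed hippocampus. Trend and robust moderation gave 15, 1 and 2 for amygdalar P7 and those 2 hippocampal steps. Array weights gave 5 at amygdalar P7, 41 for P21 minus P14 in exposed amygdala, 6 in exposed hippocampus and 1 for P14 minus P7 in control amygdala.

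Leaving out 1 array at a time gave 1 to 9 at amygdalar P7, 9 to 22 at amygdalar P14, 8 to 29 for P21 minus P14 in exposed amygdala, 0 to 1 for that step in exposed hippocampus 6 to 10 and 1 to 5 for P75 minus P21 in control and exposed amygdala and 1 to 2 for P14 minus P7 in control amygdala. Without amygdalar P14 exposed replicates 1 and 2 the count higher was 5, and without replicates 3 to 5 it was 37. Replicate numbers did not pair the arrays: of 38 same-numbered pairs, 0 had a correlation over 0.1 (-0.157 to 0.0768). The replicate block gave 1 at amygdalar P7 and 1 for P75 minus P21 in exposed amygdala, and changed no other count by over 1.5 times.

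Signs of single members turned with quantile normalisation at hippocampal P7 (Rpl11 0.32, Rpl31 0.102, Rpl32 0.018, Rplp1 0.315, Rps27a 0.069) and with cyclic loess (Rpl31 0.018, Rps27a 0.007 at P7; Rps10 -0.045 at P75). They turned with the control probe for Rpl32 at P7 (0.01), for Rpl17l5 (-0.16), Rpl27 (-0.32), Rpl30 (-0.30), Rpl35a (-0.031), Rpl5 (-0.069) and Rpl8 (-0.68) at P21 and for Rpl10a (-0.068), Rpl27 (-0.053) and Rps12 (-0.019) at P75. Rps7 at hippocampal P14 turned without control replicates 1 to 3 (0.45), and Rpl13a at amygdalar P14 without exposed replicates 3 to 5 (0.20). Averaging rows per gene changed nothing, since each member has 1 row. The unpaired test could not be applied to F and region tests, nor the fit of only the groups compared to F tests.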
